A study of Mus musculus with 6 samples.

Results

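A set of 10 genes for making microRNAs and for silencing by them was followed in 32D cells, an interleukin-3-dependent mouse myeloid line. The set was chosen by function, with earlier results of these data known: Drosha, Dgcr8, Xpo5, Dicer1, Tarbp2, Ago1, Ago2, Ago3, Ago4 and Tnrc6a. Every probe set annotated to these genes alone was taken, 34 of the 45037 probe sets that are not Affymetrix controls, and all 10 genes had at least 1. One arm of 3 samples carried a construct labelled C2-MiR-9, from which miR-9 and its partner strand miR-9* are made, and the other arm of 3 an empty vector labelled A1-EV. All 6 cultures grew in RPMI with murine interleukin-3 (10 ng/ml), fetal calf serum (10%) and antibiotics. The replicates are described as independent, but not whether an arm is 1 clone, which promoter drives the construct or how cultures were kept apart, so p-values measure the spread between these samples, which may be technical.

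MicroRNA genes are transcribed into long primary transcripts. In the nucleus Drosha, an RNase III enzyme, and its RNA-binding partner Dgcr8 cut out a hairpin, and exportin 5 (Xpo5) carries it to the cytoplasm. There Dicer1, with the double-stranded RNA-binding protein Tarbp2, removes the loop, and 1 strand is kept by an Argonaute protein, which with the scaffold Tnrc6a (a GW182 protein) represses matching messages. The cells of 1 arm therefore carried an added substrate of the enzymes measured here, and the comparison asks whether the messages of the nuclear, export and silencing steps differed between the arms.

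The added hairpin is shown first because both of its strands are named products of the experiment. MiR-9 is the strand of its 5′ arm and miR-9* that of its 3′ arm, listed by RefSeq (GRCm38.p6) as miR-9-5p and miR-9-3p. The seed, bases 2 to 8, is in capitals.
miR-9-5p: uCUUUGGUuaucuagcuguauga
miR-9-3p: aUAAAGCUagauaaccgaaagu
The seeds differ, so the strands belong to separate seed groups. The mouse genome holds 3 hairpins that give these strands, and the labels do not say which one the construct carries. Here capitals mark the strands that remain after the Drosha and Dicer1 cuts.
Mir9-1 (chr3:88215598-88215686, plus strand): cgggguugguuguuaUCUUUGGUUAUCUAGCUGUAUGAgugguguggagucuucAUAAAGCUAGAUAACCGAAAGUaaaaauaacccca
Mir9-2 (chr13:83738814-83738885, plus strand): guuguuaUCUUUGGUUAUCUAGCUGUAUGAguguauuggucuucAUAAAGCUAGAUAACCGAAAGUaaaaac
Mir9-3 (chr7:79505264-79505353, plus strand): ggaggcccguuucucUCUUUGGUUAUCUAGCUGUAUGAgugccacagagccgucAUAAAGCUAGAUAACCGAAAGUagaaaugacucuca
Between the strands lie 16 bases in Mir9-1 and Mir9-3 and 14 in Mir9-2, the loop that Dicer1 removes, while the strands themselves are identical in all 3. The level of either strand was not analysed here.

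The values are MAS5 signals, linear intensities with the same trimmed mean, 100, on each array. Array medians lay between 12.0 and 15.2, and those of replicate number 3 were the lowest of each arm. Number 3 also stood apart from numbers 1 and 2 in both arms on the leading principal component, which held 48.4% of the variance. Same-numbered arrays deviated together from their arm means (processing section), so results are given within replicate numbers too. Of 15 myeloid markers 11 lay above the filter, while Elane, Kit, Csf3r and Cd34 did not; of the lymphoid markers 1 of 6 did and of the fibroblast markers 0 of 5. Markers of other blood cells moved with the arms once the replicate number was a block: 3 of 7 tested erythroid, 3 of 6 megakaryocyte, 2 of 3 eosinophil and 1 of 6 monocyte markers were higher, against 1.02% of all tested probe sets. Lower were 4 of 7 tested late neutrophil and 1 of 11 myeloid markers, against 0.934% of all. Each marker was read by its brightest probe set. Counted that way over all genes, 154 of 10200 were higher and 148 lower with the block. Summed erythroid marker signal ran from 2781 to 3966 with the vector and from 3834 to 3991 with miR-9/9*, with Alas2 and Slc4a1 below the filter. Summed megakaryocyte signal ran from 1222 to 2264 and from 1495 to 2850 (Ppbp below the filter), and eosinophil signal from 255 to 1376 and from 277 to 3617 (Ccr3 and Il5ra below the filter). Summed late neutrophil signal ran from 1019 to 3957 and from 249 to 2660 (Camp and Mmp8 below the filter). The marker lists, too, were chosen with earlier results of these data known. The part of these markers in the differences below was not tested. In such bulk samples more message per cell and more cells of a kind cannot be told apart.

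Differences are means of log2(signal + 16), miR-9/9* minus empty vector, a scale that understates changes of dim probe sets. Folds are these differences turned back from log2 and are not ratios of the mean signals. Probe sets with a mean below the median of the array were left out of the test, which kept 22492 probe sets and 25 of the 34. Without a block 0 of these 25 passed limma's test at an adjusted p of 0.05 (all adjusted p = 0.9998), against 2 of all tested probe sets, or 0.00889%. At an unadjusted p under 0.05 the count was 3 of 25, against 3.58% of all. With the replicate number as a block, 3 of 25 rose and 0 fell, or 12%, against 1.95% of all tested probe sets (1.02% higher and 0.934% lower). The 3 were a probe set each of Dgcr8, Dicer1 and Ago1. With the brightest probe set per gene, 2 of 9 genes rose with the block (Dgcr8 and Ago1), against 2.96% of 10200 genes. The block leaves 2 residual degrees of freedom, and all 3 calls ended when dim probe sets were kept in or when the prior variance was not allowed to follow the signal (the variance trend). Within replicate numbers 12 of 25 were higher in 3 of 3 pairs, or 48%, against 20.1% of all tested probe sets, and 2 were lower in 3 of 3, against 16.3%. Several of these probe sets belong to 1 gene and are not independent of each other. Because earlier results of these data were known when the members were chosen, these shares are a description, and no test was run over the set.

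**Figure D1:**
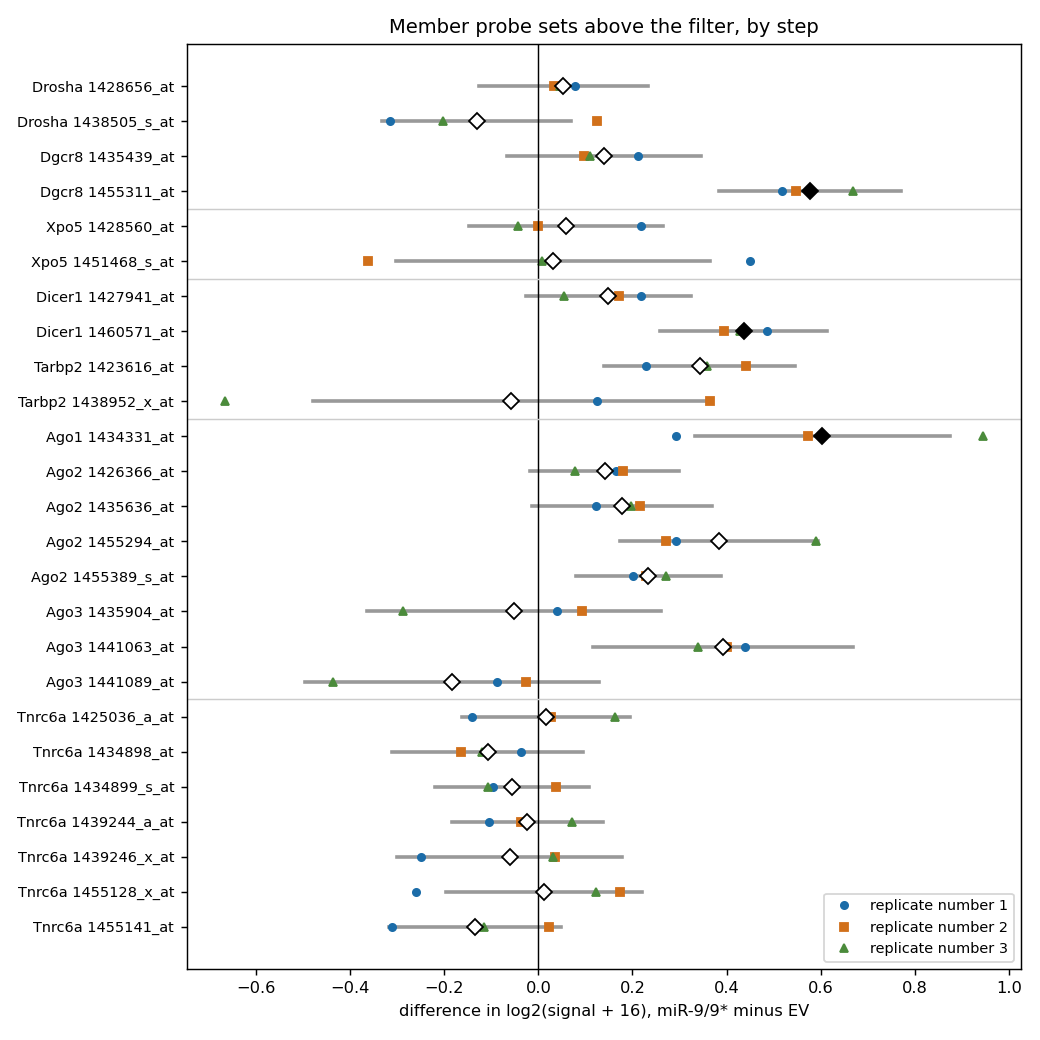
Differences in log2(signal + 16), miR-9/9* minus empty vector (EV), for the 25 probe sets above the filter, ordered by step. Diamonds are means over 3 arrays per arm (black where the adjusted p with the replicate block is under 0.05), grey bars are 95% confidence intervals with the block, and coloured points are the differences within replicate numbers 1, 2 and 3. The black diamonds are Dgcr8 at 0.58, Dicer1 at 0.44 and Ago1 at 0.60, all 4 Ago2 probe sets lie to the right of 0 in every number, and those of Tnrc6a spread around 0.

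In the nuclear step 1 probe set of Dgcr8, which recognises the primary transcript, was called higher with the block. No probe set of the enzyme Drosha was called, and the difference between the 2 genes was not tested. Dgcr8 probe set 1455311_at read 143, 153 and 86.9 in empty vector replicates 1, 2 and 3, and 211, 230.3 and 148 in the miR-9/9* replicates. The arms overlapped, since the third miR-9/9* array lay under the second vector array, but every miR-9/9* array stood above its own number. The mean went from 127 ± 35.4 to 196 ± 43.3 (SD, n = 3), a log2 difference of 0.58 or 1.49-fold. With the block the SE was 0.0863 and the adjusted p in limma 0.00944. Without the block the SE was 0.227 and the adjusted p 0.9998. Its differences of 0.52, 0.55 and 0.67 in numbers 1, 2 and 3 were close to each other. The blocked call held when any number was left out (adjusted p from 0.0196 to 0.0464). Such a fit has fewer residual degrees of freedom than the full one and leans more on the variance pooled across probe sets. Without empty vector replicate 3 alone, and with no block, the difference was 0.35. The blocked call was lost without a filter (adjusted p = 0.0825) and without a variance trend (0.0851).

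A second Dgcr8 probe set, 1435439_at, made from the same source sequence, gave a smaller difference. It read 95.9, 133 and 109 with the vector and 114, 144 and 118 with miR-9/9*. All 3 pairs were higher here too, by 0.21, 0.10 and 0.11, but the mean difference of 0.14 had a blocked 95% interval from -0.07 to 0.35 and did not pass (adjusted p = 0.545). The difference between the 2 probe sets was not tested, and averaging them gave 0.36 with the block (adjusted p = 0.0379). The other Dgcr8 probe sets, 1422981_at and 1446169_at, lay below the filter, with highest signals of 15.7 and 4.42.

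Drosha gave no call. Its brighter probe set, 1438505_s_at, read 763, 639.6 and 832 with the vector and 609.8, 699 and 721 with miR-9/9*. The arms overlapped and the pairs had both signs, at -0.32, 0.12 and -0.20. The mean difference was -0.13, with a blocked interval from -0.33 to 0.07 (adjusted p = 0.562). Probe set 1428656_at read 194, 184 and 160.0 against 206, 189 and 166. It was higher in 3 of 3 pairs by small steps, 0.05 on average, with an interval from -0.13 to 0.23 (block adjusted p = 0.828). The last Drosha probe set, 1438440_at, lay below the filter at no more than 12.4.

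Export rests on Xpo5, which moves the hairpin through the nuclear pore with the GTPase Ran. Probe set 1428560_at read 146, 159 and 129 with the vector and 172, 159 and 125 with miR-9/9*. Only number 1 differed by much, and the mean difference was 0.06 (blocked interval -0.15 to 0.26, adjusted p = 0.839). Probe set 1451468_s_at read 67.0, 82.9 and 64.3 against 97.3, 60.9 and 64.7, with differences of 0.45, -0.36 and 0.01 within the numbers. These cancelled to 0.03 (blocked interval -0.30 to 0.37, adjusted p = 0.956). A rise as large as that of Dgcr8 1455311_at (0.58) lies outside both intervals, and 1 as large as that of Dgcr8 1435439_at (0.14) lies inside both. Whether Xpo5 differs from Dgcr8 was not tested.

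In the cytoplasm 1 Dicer1 probe set was called higher with the block, and the other was not. Without the block neither was called. For the Dicer1 partner Tarbp2, 1 probe set was higher on all miR-9/9* arrays without passing. Dicer1 probe set 1460571_at read 179, 181 and 140 with the vector and 257, 243 and 193 with miR-9/9*. The lowest miR-9/9* array lay above the highest vector array, so the arms did not overlap. The mean went from 167 ± 23.3 to 231 ± 33.4 (SD, n = 3), a log2 difference of 0.44 or 1.35-fold, with 0.49, 0.39 and 0.43 in numbers 1, 2 and 3. With the block the SE was 0.0796 and the adjusted p in limma 0.0234, against an SE of 0.157 and an adjusted p of 0.9998 without it. The blocked call was lost without number 1 (adjusted p = 0.117) or number 3 (0.0821), without a filter (0.115) or variance trend (0.138), and when the Dicer1 probe sets were averaged (difference 0.29, adjusted p = 0.0658).

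The brighter Dicer1 probe set, 1427941_at, read 213, 236 and 219 with the vector and 251, 267 and 228 with miR-9/9*. Each miR-9/9* array was above its number, by 0.22, 0.17 and 0.06, but the arms overlapped. The mean difference of 0.15 had a blocked interval from -0.03 to 0.32 (adjusted p = 0.436). As with Dgcr8, probe sets of 1 gene therefore leaned the same way with different sizes.

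**Figure D2:**
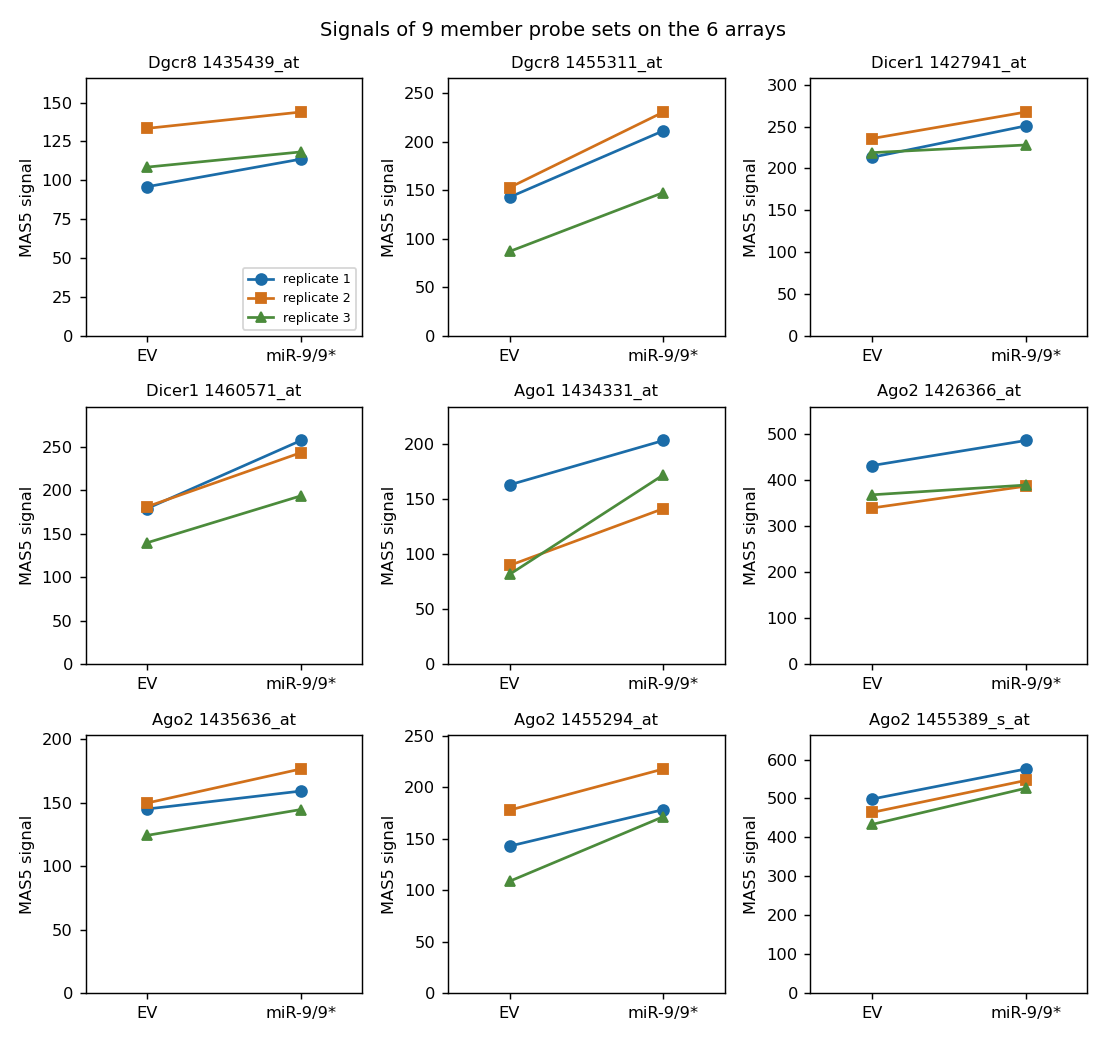
MAS5 signals (linear axis from 0) of the Dgcr8, Dicer1, Ago1 and Ago2 probe sets above the filter on all 6 arrays, with lines joining arrays of the same replicate number. All lines go up from empty vector (EV) to miR-9/9*, steeply for Dgcr8 1455311_at, Dicer1 1460571_at and Ago1, and with little slope for Dgcr8 1435439_at and Dicer1 1427941_at.

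Tarbp2 probe set 1423616_at read 128, 102 and 142 with the vector and 153, 143 and 187 with miR-9/9*. Its arms did not overlap, and the pairs differed by 0.23, 0.44 and 0.36. The mean difference of 0.34 had a blocked interval from 0.14 to 0.54 but did not pass over all probe sets (block adjusted p = 0.101), and it was 0.22 without empty vector replicate 2. The dimmer probe set, 1438952_x_at, read 31.1, 19.8 and 60.0 against 35.4, 30.0 and 31.9. The third vector array stood above all others, and the difference was -0.06 with an interval from -0.48 to 0.36 (block adjusted p = 0.931). Its sign turned without that array (0.24) and, with the block, without number 3 (0.25). Of the 25 probe sets 3 had arms that did not overlap with miR-9/9* higher (Dicer1 1460571_at, Tarbp2 1423616_at and Ago2 1455389_s_at), or 12%, against 4.29% of all tested probe sets.

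Among the Argonautes, the proteins that hold the guide strand, Ago1 was higher with the block and Ago2 leaned up in all its probe sets without a call. The only Ago1 probe set, 1434331_at, read 163, 89.8 and 81.7 with the vector and 203, 141 and 172 with miR-9/9*. The vector array of number 1 lay above the miR-9/9* array of number 2, so the arms overlapped, although miR-9/9* was higher within each number. The mean went from 112 ± 44.8 to 172 ± 30.9 (SD, n = 3), a log2 difference of 0.60 or 1.52-fold. The size varied with the number, at 0.29, 0.57 and 0.94. With the block the SE was 0.122 and the adjusted p in limma 0.0370, against an SE of 0.239 and an adjusted p of 0.9998 without it. The blocked call was lost without number 2 (adjusted p = 0.0517) or number 3 (difference 0.43, adjusted p = 0.148), without a filter (0.225) and without a variance trend (0.172).

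Ago2, the Argonaute that can cut a fully matched target, had 4 probe sets above the filter, and each was higher in 3 of 3 pairs. Probe set 1455389_s_at read 499, 464 and 433 with the vector and 576, 546 and 526 with miR-9/9*, with arms that did not overlap. Its difference of 0.23 (0.20, 0.23 and 0.27 in the numbers) had a blocked interval from 0.08 to 0.39 (adjusted p = 0.137). Probe set 1455294_at read 143, 178 and 109 against 178, 218 and 171. This was the widest difference of the 4, at 0.38 with an interval from 0.17 to 0.60, and the nearest to the threshold (block adjusted p = 0.0806). Without empty vector replicate 3 and with no block it was 0.22. Probe set 1435636_at, from the same source sequence as 1455389_s_at, read 145, 149.8 and 124 against 159, 177 and 145. Probe set 1426366_at read 432, 339.7 and 368 against 486, 387 and 389.5. These last 2 differed by 0.18 and 0.14, with intervals that reached just below 0 (adjusted p = 0.381 and 0.409). Across the 4 the ratio of the arms ran from 1.10-fold to 1.30-fold, and 0 passed in limma with or without the block (2 with a blocked unadjusted p under 0.05, among 7 of the 25 member probe sets and 14.6% of all tested).

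Ago3 gave no single direction. Probe set 1441063_at read 33.5, 39.6 and 25.7 with the vector and 51.1, 57.3 and 36.8 with miR-9/9*. It was higher in 3 of 3 pairs by 0.39 on average (block adjusted p = 0.165). Probe set 1441089_at went the other way, from 32.1, 31.8 and 42.3 to 29.2, 31.0 and 27.1, with arms that did not overlap and a difference of -0.18 (adjusted p = 0.610). It was 1 of 25 with non-overlapping arms and miR-9/9* lower, or 4%, against 4.09% of all. The third, 1435904_at, read 27.9, 31.4 and 30.5 against 29.1, 34.6 and 22.0 and differed by -0.05 (adjusted p = 0.915). All 3 are dim, and the remaining Ago3 probe sets, 1442009_at and 1458476_at, lay below the filter at no more than 15.4 and 1.21.

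Ago4 was not measured above the filter. Probe set 1429779_at read 8.21, 2.85 and 4.89 with the vector and 0.894, 9.27 and 1.26 with miR-9/9*. Probe set 1453289_at read 4.58, 3.03 and 0.399 against 0.781, 4.17 and 4.11. Neither separates the arms, and signals this low give no comparison.

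Tnrc6a, the scaffold that joins Argonaute to the deadenylases, had 9 probe sets, 7 of them above the filter, and none was called. The brightest, 1439244_a_at, read 624, 556 and 537 with the vector and 579, 541 and 565 with miR-9/9*. Its difference was -0.02 with a blocked interval from -0.18 to 0.14 (adjusted p = 0.926). Over the 7 the differences ran from -0.13 (1455141_at, adjusted p = 0.507) to 0.02 (1425036_a_at, adjusted p = 0.958), and the blocked intervals together spanned -0.32 to 0.22. In 6 of the 7 the pairs had both signs, and 1434898_at was lower in 3 of 3, by 0.04, 0.17 and 0.12 on the log2 scale. Values of 1455141_at were 450.2, 395 and 420.4 against 360.0, 402 and 387, and of 1434898_at 137, 139.7 and 114 against 133, 123 and 103. The intervals leave out a rise of the size seen for Dgcr8 1455311_at, Dicer1 1460571_at or Ago1. Some of them include the smaller rises of Dgcr8 1435439_at (0.14) and Dicer1 1427941_at (0.15). Whether Tnrc6a differs from these genes was not tested. Probe sets 1439245_at and 1457295_at lay below the filter at no more than 7.38 and 9.97; the latter was higher within each number, by 0.38, 0.35 and 0.38, at signals too low to be tested.

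The steps were then set side by side as medians over probe sets, described without a test because the members were chosen as a set. Over all probe sets of a step, dim ones included, the median difference was 0.05 for the nuclear pair Drosha and Dgcr8 (7 probe sets) and 0.04 for export (2). It was 0.25 for Dicer1 with Tarbp2 (4), 0.16 for the Argonautes (12) and -0.06 for Tnrc6a (9). The median of the members was 0.03 and that of all 45037 probe sets 0.01. With the brightest probe set per gene the nuclear median was 0.22, beside 0.25 for Dicer1 with Tarbp2, 0.31 for the Argonautes, 0.06 for export and -0.02 for Tnrc6a. With the Argonautes and Tnrc6a joined as the silencing step the median was 0.01 over 21 probe sets, beside 0.06 over the 13 of the genes acting before it. Above the filter the 5 medians were 0.10, 0.04, 0.25, 0.21 and -0.06, and that of all tested probe sets was 0.01. For the nuclear pair the median was 0.15, 0.11 and 0.08 in numbers 1, 2 and 3. For the Argonautes it was 0.18, 0.22 and 0.23 in numbers 1, 2 and 3, and for Dicer1 with Tarbp2 0.22, 0.38 and 0.21. Export ranged from -0.18 to 0.33 and Tnrc6a from -0.14 to 0.03 over the numbers. The blocked calls fell in 3 steps, 1 of 4 nuclear, 1 of 4 cytoplasmic and 1 of 8 Argonaute probe sets above the filter, beside 0 of 2 for export and 0 of 7 for Tnrc6a, where 1.95% of all tested probe sets were called. Single arrays turned the sign of 3 of the medians over all probe sets: nuclear without empty vector replicate 3 (-0.02) or miR-9/9* replicate 1 (-0.01), export without the same arrays (-0.02 and -0.09) and Tnrc6a without empty vector replicate 1 (0.02). Whether the steps differ was not tested.

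**Figure D3:**
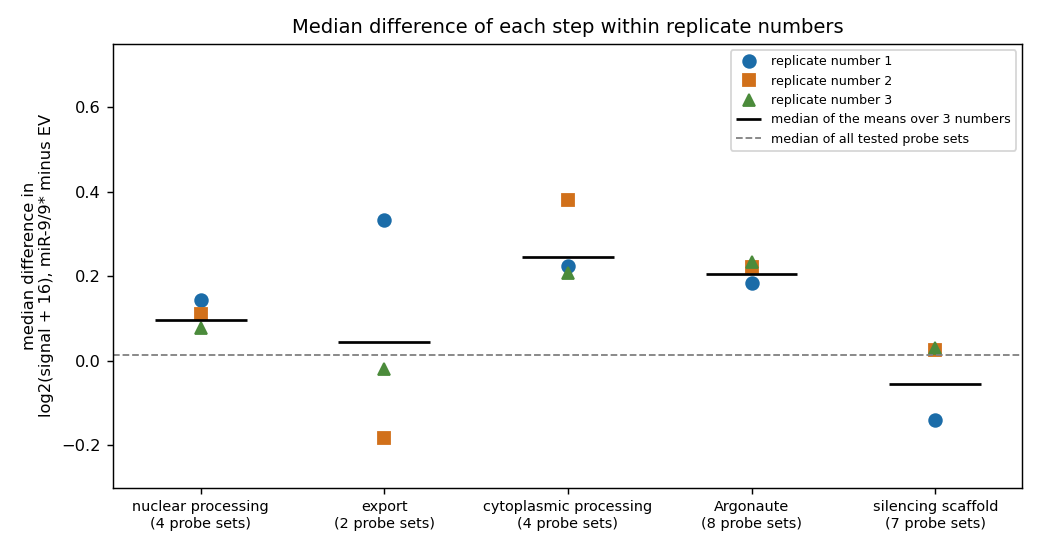
Median difference in log2(signal + 16), miR-9/9* minus empty vector, over the probe sets above the filter of each step, within replicate numbers 1, 2 and 3 (coloured points), with the median of the means over 3 numbers (black line) and of all tested probe sets (dashed, 0.01). Nuclear, dicing and Argonaute medians lie above the dashed line in each number, while export and Tnrc6a have points on both sides of it.

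The dependence of the 3 blocked calls on single settings was not alike. Dgcr8 1455311_at passed under 10 of 12 alternatives that tested it with the block, Ago1 under 8 of 12 and Dicer1 1460571_at under 7 of 11. These counts leave out the averaging of probe sets per gene. There Dgcr8 and Ago1 passed in limma (adjusted p = 0.0379 and 0.0341) and Dicer1 did not (0.0658). For Dicer1 the brightest probe set per gene is 1427941_at, so 1460571_at is absent from that setting. There 1427941_at did not pass in limma with the block (adjusted p = 0.363).

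**Figure D4:**
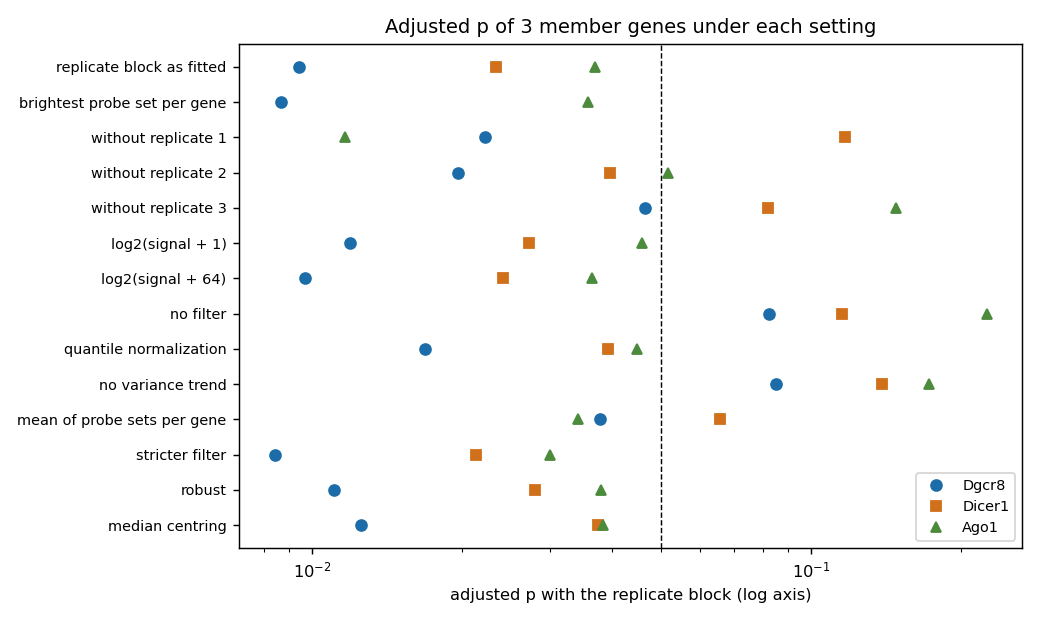
Adjusted p (log axis) of Dgcr8, Dicer1 and Ago1 with the replicate number as a block, as fitted and under each alternative; the dashed line is the threshold of 0.05. Without a filter and without a variance trend all 3 lie right of the line, from 0.0825 to 0.225, and without replicate 3 Dgcr8 alone lies left of it.

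The promoters of these 3 genes are shown because a probe set of each was called with the block. Each is the 250 bases before the RefSeq start (GRCm38.p6, gene strand, 5′ to 3′), with matches to the motifs named below in capitals.
Dgcr8 (chr16:18289169-18289418, minus strand): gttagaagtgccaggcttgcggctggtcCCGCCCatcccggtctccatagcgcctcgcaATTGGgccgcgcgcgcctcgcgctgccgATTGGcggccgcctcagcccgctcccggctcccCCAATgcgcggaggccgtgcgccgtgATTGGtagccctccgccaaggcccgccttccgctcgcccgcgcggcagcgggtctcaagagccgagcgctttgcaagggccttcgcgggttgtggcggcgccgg
Dicer1 (chr12:104751953-104752202, minus strand): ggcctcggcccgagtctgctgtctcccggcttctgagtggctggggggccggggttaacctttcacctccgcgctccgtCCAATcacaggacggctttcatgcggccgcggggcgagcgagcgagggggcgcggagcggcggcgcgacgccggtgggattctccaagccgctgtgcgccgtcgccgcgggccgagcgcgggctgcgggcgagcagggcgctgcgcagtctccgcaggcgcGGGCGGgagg
Ago1 (chr4:126468632-126468881, minus strand): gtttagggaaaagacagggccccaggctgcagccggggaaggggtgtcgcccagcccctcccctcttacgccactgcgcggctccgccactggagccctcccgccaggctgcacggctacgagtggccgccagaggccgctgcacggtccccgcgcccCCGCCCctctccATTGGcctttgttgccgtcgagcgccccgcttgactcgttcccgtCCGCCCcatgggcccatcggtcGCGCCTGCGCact
All 3 are rich in G and C, at 73.6%, 76% and 72.4%, against a median of 52% over 27025 promoters. Both strands were searched. The GC box (GGGCGG) was found in 7 of the 9 members with a promoter in the table, against 32.9% of all promoters, and the CCAAT box (CCAAT) in 5 of 9, against 34.5%. Both were present in Dgcr8, Dicer1, Tarbp2 and Ago1, 4 of 9, against 11.4% of all, and Dgcr8 held 4 CCAAT matches. The NRF1 motif was found in Xpo5 and Ago1 (3.86% of all) and the ETS core (CCGGAAG) in Drosha and Ago3 (7.05%). The E-box (CACGTG, 6.05% of all) and the TATA box (TATAAA, 13%) were found in 0 of 9. No match overlapped another in the 3 printed windows. The shares of all promoters were not matched for G and C content. A match describes the letters and no binding.

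The rest of the pathway gave no call. Of 59 further genes listed for it, 53 had 133 probe sets above the filter, and in limma 0 passed without the block and 0 with it, at 1.95% of all tested probe sets (16 of 133 with a blocked unadjusted p under 0.05, against 14.6% of all). Their median difference was 0.02, with single probe sets from -0.25 to 0.56. The smallest blocked adjusted p was 0.1094, for a probe set of the deadenylase subunit Cnot6l. A probe set of Tnrc6b, a paralogue of Tnrc6a, was next to it at 0.1095. Each group is shown by the brightest probe set of its genes. The RNA helicase Ddx5, a Drosha cofactor, stood at 3278 ± 190.4 against 3092 ± 653 (SD, n = 3), and Ran, the GTPase of nuclear transport, at 4494 ± 827 against 4397 ± 269. The chaperone Hsp90aa1, which helps load Argonaute, was at 5284 ± 865 against 5160.3 ± 287, and Pabpc1, the poly(A)-binding protein, at 5973 ± 1023 against 5901 ± 457. The deadenylase Cnot6 stood at 991 ± 50.0 against 1032 ± 12.6, Ddx6, a helicase of the decapping complex, at 1022 ± 156 against 992 ± 188, and the exonuclease Eri1 at 1352 ± 237 against 1468 ± 191. Their log2 differences ran from -0.10 for Ddx5 to 0.12 for Eri1, the latter higher in 3 of 3 pairs. Their blocked adjusted p ran from 0.501 to 0.986. Another Ddx6 probe set had the smallest blocked adjusted p of the decapping group, 0.223. By group the median difference was 0.14 over the 9 probe sets of the Tnrc6a paralogues and poly(A)-binding proteins and between -0.01 and 0.05 in the other 6 groups. Of the 133 probe sets 35 were higher in 3 of 3 pairs, against 20.1% of all tested, and 15 lower, against 16.3%.

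Genes with the most similar pattern were sought for the brightest probe sets of Dicer1 and Ago2 among 10200 genes over the 6 arrays, which share platform, scaling and replicate numbers. For Dicer1 1427941_at these were Mrtfb (Pearson r = 0.989), Sugp1 (0.987) and Mapk6 (0.983), and 123 genes had r over 0.9. For Ago2 1455389_s_at they were Rap2a (0.999), Llgl1 (0.990) and Osbpl1a (0.990), with 184 genes over 0.9. These values are a description over arrays of both arms, so a shared difference between the arms enters r. Mrtfb and Rap2a were higher by 0.70 and 0.51 and were called in limma with the block (adjusted p = 0.0079 and 0.0168). The other named genes were not called. Over 6 arrays a high r can arise between unrelated genes, and no baseline count was computed.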

How the data were processed

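The authors deposited MAS5 signal intensity values, 1 per probe set and array, on a linear scale (MAS5 per the submitters' processing notes, no version given). RNA was Trizol-extracted and biotinylated cRNA made from 6 ug of total RNA, with 1 colour, per the labels' protocols. Of 45101 probe sets, 64 are controls. Genes were named through GEO's platform annotation of 2016; 34958 probe sets have 1 symbol, 932 several and 9160 none, and 34754 of those with 1 matched a RefSeq gene table (GRCm38.p6) by Entrez ID, which changed 0 symbols. Probe sets with several symbols were not used for named genes.

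Signals were transformed to log2(signal + 16). Probe sets with a mean below the median of all, 4.86 or a signal of 13.0, were left out, and 22492 were tested in limma 3.58.1 under R 4.3.3 (lmFit and eBayes, trended prior variance, two-sided), with Benjamini-Hochberg adjustment over these and a threshold of 0.05. The script was tested on simulated data. The design has no block; the replicate number as a block is the alternative. Same-numbered arrays deviated together. After each arm's mean was subtracted, arrays of number 1, 2 and 3 correlated across probe sets at 0.492, 0.599 and 0.687 with their partner. Between numbers the value was at most -0.016. Subtracting the arm means makes these negative on average once partners correlate, so they are no separate evidence of pairing. The labels give only the numbers. Alternatives changed the pseudocount, filter, normalization, variance model, weights, unit and threshold and left out arrays.

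Members and gene lists were chosen with earlier results of these data known. Named are all members, and called pathway genes or else the brightest gene of each pathway group. For the brightest probe set of Dicer1 and of Ago2, the 3 most correlated genes are named too. Cnot6l and Tnrc6b were named after their values were seen. No 2 arrays held identical values. Arrays give no read depth; their number limits the precision.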

Additional observations from a re-analysis of the deposited data

How the results depend on the processing

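Without the block the number of called member probe sets was 0 under all 18 alternatives run, single arrays left out included (0 to 0). Over all probe sets 2 were called, 0 with log2(signal + 64), with no filter, with a stricter filter or at an adjusted p of 0.01, 23 with array weights, 6 with the brightest probe set per gene, 5 with the mean of probe sets per gene, and 0 to 7 when single arrays were left out. Median centring called 3. With the replicate block 439 of all and 3 of the members were called. The blocked counts, all and members, were 302 and 2 with the brightest probe set per gene, 239 and 2 without replicate 1, 446 and 2 without replicate 2 and 313 and 1 without replicate 3. They were 385 and 3 with log2(signal + 1), 435 and 3 with log2(signal + 64), 411 and 3 with quantile normalization, 54 and 0 with no filter and 46 and 0 with no variance trend. Alternatives chosen after seeing the data gave 232 and 2 (mean of probe sets), 427 and 3 (stricter filter), 430 and 3 (robust) and 404 and 3 (median centring). No called member changed direction. Uncalled ones did in 35 cases, over probe sets of Drosha, Xpo5, Tarbp2, Ago3 and Tnrc6a. Step medians over all probe sets moved with the brightest probe set per gene (nuclear 0.22 from 0.05, Argonaute 0.31 from 0.16). The Argonaute median also moved with log2(signal + 64) (0.11) and without miR-9/9* replicate 3 (0.22). The export median of 0.04 moved too, to -0.10 without replicate 1 of both arms and to 0.16 without replicate 2 of both arms. The causes were not tested. Dim probe sets limit Ago3 and Ago4.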

Other observations

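Messages of the genes that host the miR-9 hairpins were low on these arrays. The 3 probe sets of Gm3764, which spans Mir9-1, read no more than 22.4 on any array, and the 4 of C130071C03Rik, which spans Mir9-2, no more than 8.13. Mir9-3hg, which spans Mir9-3, had 1 probe set just above the filter, at 14.2, 13.1 and 13.3 with the empty vector and 9.00, 27.3 and 7.34 with miR-9/9* in replicates 1, 2 and 3. Only replicate 2 was higher, and limma called no difference (adjusted p = 0.9998, and 0.991 with the replicate block).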
